A study of Mus musculus with 2 samples.

Results

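Macrophage and myeloid genes were examined in cultured intestinal subepithelial myofibroblasts (ISEMFs), contractile mesenchymal cells that lie beneath the crypt epithelium of the gut. The list holds 39 genes of the 37309 in the deposited table, and all 39 were found there by symbol. Emr1 and Sfpi1 are the older symbols of Adgre1, which encodes F4/80, and of Spi1, which encodes the transcription factor PU.1. The genes were chosen by their read numbers in the same 2 libraries that are compared here, so the differences below describe the list and do not test it. The study set supportive ISEMFs, grown from the small intestine of neonatal C57BL/6 mice, beside non-supportive ISEMFs grown from adult mice of that strain. The names refer to how well crypts formed enteroids when grown in contact with them without added R-spondin, a Wnt agonist. The study's methods give an age of 5 days for the neonates and 2 months for the adults, and all mice were wild type. Each population was sequenced as 1 library, with no replicate, so age, isolation and population cannot be told apart. The cultures were passaged, but the sources used here do not state how often before sequencing. The deposited names carry P16 for the supportive and P3 for the non-supportive population without saying what these mean, and whatever they stand for cannot be told apart from the groups.

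Macrophages are the resident phagocytes of the gut wall. They depend on signals through the receptor of colony-stimulating factor 1 (Csf1r), on the transcription factor PU.1, and on surface receptors that pass their signal through the small adaptor proteins encoded by Tyrobp and Fcer1g. They engulf dying cells, bacteria and opsonized particles, break them down in lysosomes and produce oxygen radicals through the phagocyte NADPH oxidase. Fibroblast and myofibroblast cultures are started from digested tissue, so cells of the blood lineage can be carried into them. In bulk RNA, fewer cells of a type and less RNA per cell cannot be told apart.

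The supportive library held 50674472 reads on genes and the non-supportive library 49615497. Mitochondrial genes took 14.6% of these reads in supportive and 7.85% in non-supportive ISEMFs, and the part of this difference in the results was not tested. The unit RPKM scales reads by exon length and library size, so that levels can be compared between genes. A count of 0 allows a share of up to 5.92e-06% for a supportive gene and 6.05e-06% for a non-supportive one, which is what 3 reads amount to. Folds carry a 95% exact (Clopper-Pearson) interval from the reads, which covers counting error only and says nothing of the spread between cultures. For a gene with 0 reads in a library, the fold was computed at 3 reads in that library and is written as a lower bound. This bound leaves out counting error in the other library. For every gene of the list with 0 supportive reads it lies above the lower end of the exact interval. The values are 403 against 327 for Tyrobp and 301.5 against 244.7 for Ptprc. The words "at least" before a fold refer to this bound and not to the interval. The ISEMF genes Acta2 (smooth muscle actin, RPKM of 908 in supportive and 1410 in non-supportive ISEMFs) and Vim (vimentin, 325 and 407) were abundant in both libraries. Des (desmin) was low in both, at 0.575 and 3.40, and 5.92-fold lower in the supportive library (5.05 to 6.98). Of 8 ISEMF genes, 2 were at least 2-fold lower in the supportive library, 2 higher and 4 between. Pdgfra was lower (3.37 against 12.1), and Col1a2 (286.4 against 41.6) and Pdgfrb (28.1 against 7.67) were higher. Col1a1 was at 317.5 and 288.4 and Tagln at 206.4 and 360.1. The Y chromosome had 0 supportive and 2002 non-supportive reads on its genes, and Xist, which female cells express, had 108734 and 66489. The labels do not give the sex of the mice. With 1 library per population this difference cannot be told apart from the groups, and its part in the results was not tested.

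Most of the macrophage genes had few or no reads in the supportive library. Of the 39 genes, 16 had 0 reads there, 13 had between 1 and 10, and 10 had more than 10. In the non-supportive library every one of the 39 had reads, from 12 for Lyz1 to 20683 for Gpnmb. Reads were fewer in the supportive library for 36 genes and more for Mertk, Lgmn and Coro1a. The 95% interval of the fold lay wholly on the side of the non-supportive library for 36 genes and wholly on the side of the supportive library for 2, and it included no difference for Coro1a. The share of all genes in the table with such an interval was not computed. These read numbers chose the list, so nothing is read from the counts in this paragraph.

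A level of 1 RPKM or more was reached by 22 of the 39 genes, by all 22 in non-supportive and by 5 in supportive ISEMFs. Of these 22 genes, 20 were at least 2-fold lower in the supportive library with 0.1 added to each RPKM, 1 was at least 2-fold higher and 1 lay between. Among all 10086 genes with such a level, 9.27% were 2-fold lower and 9.01% were 2-fold higher. A 4-fold lower level was found for 18 of the 22 genes, against 3.29% of all 10086. Since these very values chose the list, nothing is read from the gap between those shares. The median log2 ratio of non-supportive over supportive was 4.01 over the 22 genes. It was 5.77 with genes at 3 supportive reads or fewer placed at 3 reads and left without the added 0.1, which the other genes kept. Over all 10086 genes, with 0.1 added throughout, the median was 0.07, with quartiles at -0.34 and 0.47. The other 17 genes of the list stayed under an RPKM of 1 in both libraries and entered none of these counts.

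**Figure D1:**
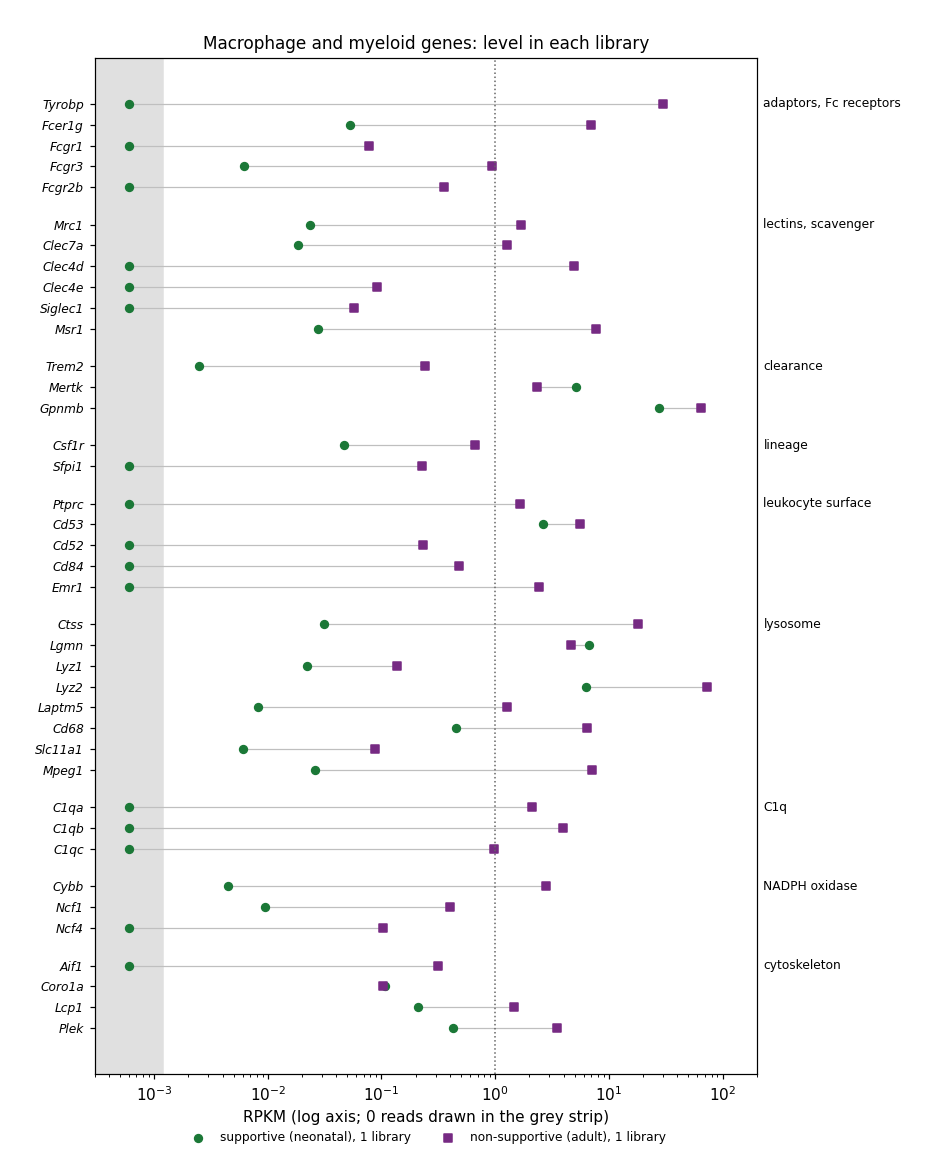
RPKM of each of the 39 genes (log axis) in the supportive library (circles) and the non-supportive library (squares), grouped by role, with 0 reads drawn in the grey strip and an RPKM of 1 dotted. In the supportive library 16 genes lie in the strip, and only Mertk and Lgmn lie clearly to the right of their non-supportive value.

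The adaptors and Fc receptors, which bind antibody-coated particles and start the signal for engulfment, had 5 reads over 5 genes in supportive ISEMFs against 1991 in non-supportive ISEMFs. Tyrobp, the gene of the adaptor DAP12, had 0 reads in supportive and 1174 in non-supportive ISEMFs, an RPKM of 0 against 30. It was at least 403-fold lower in the supportive library, and its log2 ratio of 8.23 ranked 2 among the 10086 genes. Fcer1g, the gene of the common γ chain of Fc receptors, had 3 reads and an RPKM of 0.0525 against 387 and 6.97, a 133-fold difference (45.1 to 647). The high-affinity receptor Fcgr1 had 0 against 19 reads, Fcgr2b, the inhibitory receptor, 0 against 119, and Fcgr3 2 against 292. In the non-supportive library Tyrobp and Fcer1g were at 30 and 6.97 RPKM, and the 3 Fc receptors at 0.932 (Fcgr3), 0.352 (Fcgr2b) and 0.0770 (Fcgr1). The deposited exon lengths exceed the annotated ones for these 3 receptors but not for Tyrobp and Fcer1g.

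Among pattern recognition and scavenger receptors, 4 of 6 genes reached an RPKM of 1, all of them in the non-supportive library. Msr1, the class A scavenger receptor, had 8 reads in supportive and 2158 in non-supportive ISEMFs, or an RPKM of 0.0279 against 7.74. Clec4d, a C-type lectin that signals through the Fcer1g chain, had 0 reads against 460, and was at least 158-fold lower. Its neighbour Clec4e (Mincle) lies 6521 bases away on chromosome 6 and had 0 against 16. Clec7a (dectin-1, a receptor for fungal β-glucan) had 3 against 200, Mrc1 (the mannose receptor) 10 against 710, and Siglec1, a marker of particular tissue macrophages, 0 against 33. The 2 lectin neighbours therefore differed widely in level within the non-supportive library, with an RPKM of 4.96 for Clec4d and 0.0915 for Clec4e.

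The genes for clearance of dead cells split. Trem2, a lipid-sensing receptor that pairs with the Tyrobp adaptor, had 1 read in supportive and 94 in non-supportive ISEMFs. Mertk, a receptor tyrosine kinase that binds apoptotic cells through bridging proteins, went the other way. Its RPKM was 5.09 in supportive and 2.32 in non-supportive ISEMFs, with 2220 and 982 reads, 2.20-fold higher in the supportive library (2.04 to 2.37). Gpnmb, a transmembrane glycoprotein of lysosome-rich cells, was the most read gene of the list in both libraries, with 9150 and 20683 reads and an RPKM of 27.8 and 64.6. It was 2.33-fold lower in the supportive library (2.27 to 2.38).

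The lineage regulators were low even in the non-supportive library. Csf1r had an RPKM of 0.0467 in supportive and 0.659 in non-supportive ISEMFs, from 25 and 343 reads, a 14.1-fold difference (9.40 to 22.1). Sfpi1 had 0 reads against 46, and an RPKM of 0 against 0.228. Csf1r lies on chromosome 18 of mm9 from 61265226 to 61291803, and 16.7% of its annotated exon bases also belong to exons of Hmgxb3, which had 736 and 788 reads. Pdgfrb ends 20511 bases before it on the same strand and had 14662 reads in supportive and 3894 in non-supportive ISEMFs. The part of these neighbours in the 25 Csf1r reads was not tested.

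The leukocyte surface genes were also split. Ptprc, the gene of the pan-leukocyte antigen CD45, had 0 reads against 879, at least 301.5-fold lower. Emr1 had 0 against 622 reads, at least 213-fold lower, and reached 2.42 RPKM in non-supportive ISEMFs. Cd84, a receptor of the SLAM family, had 0 against 238, and Cd52 0 against 21. Cd53, which encodes a tetraspanin of leukocytes, differed from all of these. Its reads numbered 522 against 1093 and its RPKM was 2.61 against 5.62, a 2.15-fold difference (1.94 to 2.40).

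Lysosomal genes had the highest summed RPKM of any role in the non-supportive library, 110.5 against 13.5 in supportive ISEMFs. Lyz2, the lysozyme of macrophages, had 592 reads in supportive and 6629 in non-supportive ISEMFs, an RPKM of 6.31 against 72.7, 11.5-fold lower in the supportive library (10.6 to 12.6). Ctss (cathepsin S, a protease of antigen-presenting cells) had 4 reads against 2255, an RPKM of 0.0311 against 18.1, a 580-fold difference (226 to 2131). Mpeg1, the gene of the pore-forming perforin-2, had 8 against 2125 reads, and Laptm5, a lysosomal membrane protein of blood cells, 4 against 608. Cd68 was present at a low level in the supportive library, with 51 reads against 715, a 14.4-fold difference (10.9 to 19.6). Slc11a1, a metal transporter of the phagosome, had 3 against 42. Lgmn, the asparaginyl endopeptidase legumain, was in contrast 1.42-fold higher in the supportive library (1.31 to 1.55), with 1445 reads against 986 and an RPKM of 6.65 against 4.67.

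Lyz1, the lysozyme of Paneth cells, had 2 reads in supportive and 12 in non-supportive ISEMFs and lies 5475 bases from Lyz2 on chromosome 10. The coding sequences of both lysozyme genes are 447 bases long and differ at 22 positions, an identity of 95.1%. The first 150 coding bases are shown because the deposited counts keep only reads that map to a single gene. Capitals mark the 14 positions where the genes differ.
Lyz1: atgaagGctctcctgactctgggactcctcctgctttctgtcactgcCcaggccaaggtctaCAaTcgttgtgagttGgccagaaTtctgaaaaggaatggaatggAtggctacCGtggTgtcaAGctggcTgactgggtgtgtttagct
Lyz2: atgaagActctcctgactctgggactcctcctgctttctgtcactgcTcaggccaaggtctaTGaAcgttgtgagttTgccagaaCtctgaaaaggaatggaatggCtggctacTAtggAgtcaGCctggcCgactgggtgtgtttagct
Of the 398 windows of 50 bases, the read length of the study, 80 are identical between both coding sequences. Over whole transcripts, 16% of the 50-base words of Lyz1 also occur in Lyz2. Lyz1 counts of this size are therefore uncertain. Of the other genes on the list, Fcgr2b and Fcgr3 share 166 such words, 10.1% and 10.2% of theirs.

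The C1q genes, which encode the A, B and C chains of the recognition molecule of the classical complement pathway, gave the same pattern. They lie in a cluster on chromosome 4 of mm9 between 136436044 and 136454718, with gaps of 2852 and 3617 bases. All 3 had 0 reads in the supportive library. Non-supportive ISEMFs had 152 reads of C1qa at 2.10 RPKM, 296 of C1qb at 3.92 and 130 of C1qc at 0.969. The bounds on the fold were at least 52.1, 101.5 and 44.6.

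Of the phagocyte NADPH oxidase, Cybb encodes the catalytic subunit gp91phox, and Ncf1 and Ncf4 encode the cytosolic subunits p47phox and p40phox. Cybb had 2 reads in supportive and 1216 in non-supportive ISEMFs, an RPKM of 0.00450 against 2.81, a 626-fold difference (173 to 5172). Ncf1 had 4 against 165 reads, and 9.98% of its exon bases are shared with Gtf2ird2. Ncf4 had 0 against 22. Cyba, the partner of Cybb in the membrane and not on the list, was well represented in both libraries, with an RPKM of 6.99 and 13.7.

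The cytoskeletal genes differed among themselves. Aif1, which encodes the actin-binding protein IBA1, had 0 reads in supportive and 60 in non-supportive ISEMFs. Lcp1 (L-plastin, an actin bundler) had 194 against 1306, 6.93-fold lower in the supportive library (5.95 to 8.10). Plek (pleckstrin, a kinase substrate of platelets and leukocytes) had 218 against 1764, 8.33-fold lower (7.23 to 9.63). Plek shares 4.44% of its exon bases with Cnrip1, which had 955 and 654 reads. Coro1a (coronin 1A) had 40 reads in supportive and 37 in non-supportive ISEMFs, a ratio of non-supportive over supportive of 0.952 with an interval of 0.592 to 1.53, so a difference was not detectable at this depth.

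A single common factor did not describe the list. The reads of all 39 genes summed to 14511 in supportive and 49089 in non-supportive ISEMFs, a pooled fold of 3.48 (3.42 to 3.55). Only the interval of Lyz1 included that value. The intervals of 33 genes lay above it and those of 5 below it, and of the 31 genes with at least 50 reads over both libraries 0 included it. Among these 31 the log2 ratio spanned 9.33, from Mertk at -1.10 to Tyrobp at 8.23. The pooled fold was set by a few genes, since Gpnmb, Lyz2, Mertk, Lgmn and Cd53 made 96.0% of the list's reads in supportive ISEMFs and 61.9% in non-supportive ISEMFs. Without Gpnmb it was 5.45, and 5 of the other 38 genes included it. The most intervals that any 1 factor fell in was 25 of 39, for a factor between 327 and 335.5. The intervals of all other genes lay below that factor. The 16 genes with 0 supportive reads are among the 25 and have no upper limit, so that number is no sign of a common factor.

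The genes were also divided by their supportive reads, after their values were seen. The 29 genes with 10 reads or fewer in the supportive library had 54 reads there in all and 14551 in the non-supportive library, a pooled fold of 277 (212 to 369). Since few supportive reads chose these 29 genes and 16 of them have no upper limit, the 24 intervals that included 277 are no sign of a common factor. Among the 29, Slc11a1 was 14.4-fold lower (4.6 to 72.7) and Lyz1 6.17-fold lower (1.37 to 56.8), from 3 and 2 supportive reads. Of the 10 genes with more supportive reads, Lyz2, Cd68, Csf1r, Plek and Lcp1 were 6.93-fold to 14.4-fold lower. The folds of both divisions therefore overlapped, but for Slc11a1 and Lyz1 they rest on few reads and wide intervals. The other 5, Gpnmb, Cd53, Coro1a, Lgmn and Mertk, were within 2.33-fold in either direction.

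**Figure D2:**
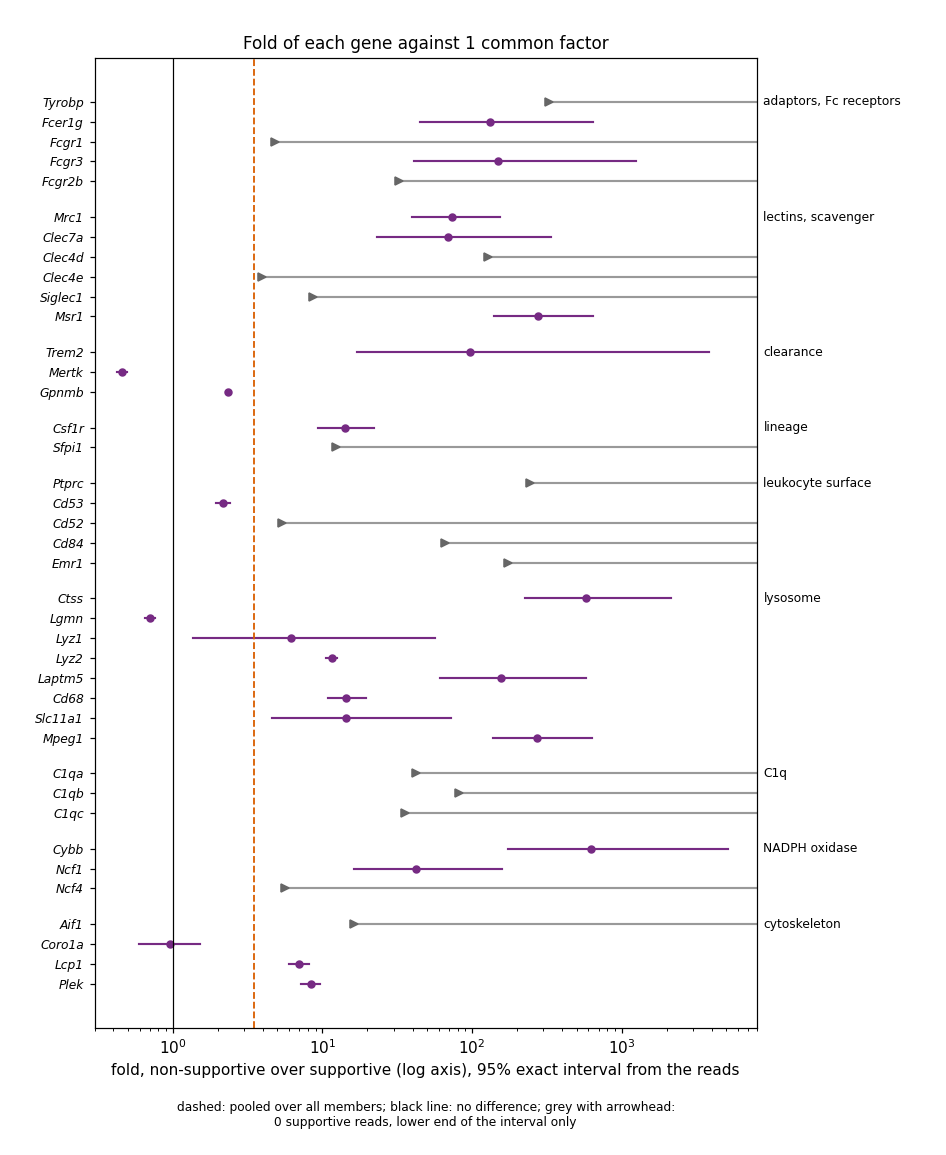
Fold of non-supportive over supportive ISEMFs for each gene (log axis) with the 95% exact interval from the reads. Grey lines with an arrowhead are the 16 genes with 0 supportive reads, drawn from the lower end of their interval. The dashed line is the pooled fold of 3.48, which 1 interval includes.

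Genes of the list that cells outside the blood lineage are known to make as well were Lgmn, Gpnmb, Mertk, Mrc1, Lyz1, Ctss, Lcp1 and Cd68. These 8 genes had 13076 reads in supportive and 27649 in non-supportive ISEMFs, a pooled fold of 2.18 (2.13 to 2.22). Gpnmb alone had 9150 and 20683 of these reads. The interval of 1 of the 8 genes included 2.18, while 5 lay above it and 2 below it. The other 31 had 1435 and 21440, a pooled fold of 15.4 (14.6 to 16.2), which 8 of them included. A factor between 327 and 335.5 was included by 24 of these 31, with the same limit as above. The division did not follow that grouping gene by gene. Ctss and Mrc1 were among the genes with 10 reads or fewer in supportive ISEMFs, while Cd53, Plek and Coro1a, which are known mainly from leukocytes, were not.

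Some genes of the list had no supportive reads at all despite many in the other library. Of the 28 genes of the list with at least 100 reads in the non-supportive library, 9 had 0 in the supportive one, against 0.649% of the 11095 genes of the table with that many reads. These read numbers chose the list, so nothing is read from that gap either. Of the 72 genes that make up this share, 8 more are on the list of further myeloid genes described next, and 55 are on neither list. The 55 include Pf4 of the platelet list and the Y-linked Ddx3y, Eif2s3y, Kdm5d and Uty. The lists do not hold every myeloid gene, so being on neither does not make a gene non-myeloid. The plot of all expressed genes shows where the list lies in the libraries.

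**Figure D3:**
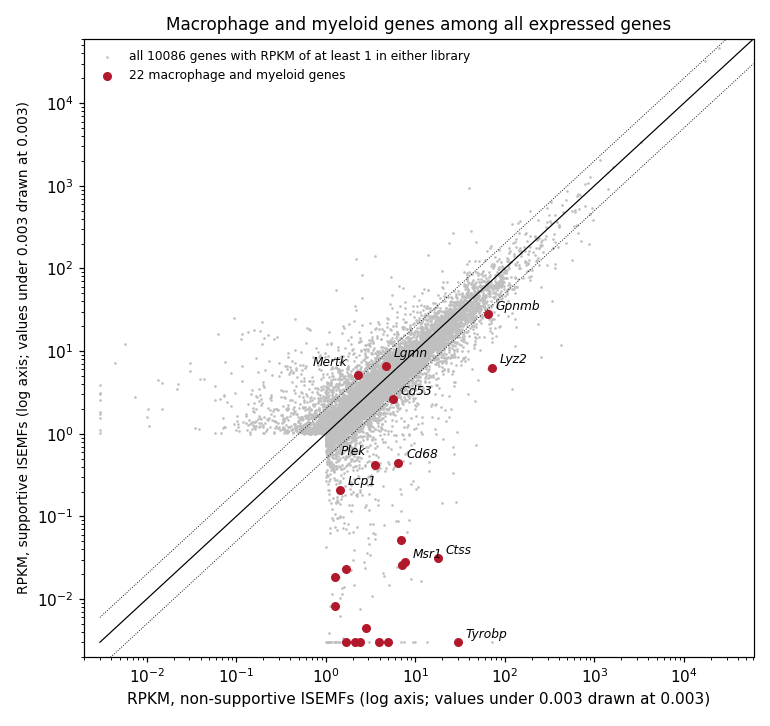
RPKM in non-supportive (horizontal) and supportive (vertical) ISEMFs, both on log axes, of the 10086 genes that reached 1 RPKM in one or both libraries (grey) and of the 22 genes of the list among them (red). The solid line is equality and the dotted lines are 2-fold. Mertk and Lgmn lie above equality, Gpnmb and Cd53 just past the lower dotted line, and Tyrobp and Ctss far below it.

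A further 69 genes known from macrophages and other myeloid cells, none of them on the list above, were compared in the same way, and 68 were in the table, with Syk not analysed here. Of these, 22 reached 1 RPKM, 12 of them at least 2-fold lower in the supportive library, 3 at least 2-fold higher and 7 between, where all 10086 genes gave 9.27% lower and 9.01% higher. This list was written with earlier results of these data known, so its counts are a description. Mmp12, the macrophage metalloelastase, had 0 reads in supportive and 9099 in non-supportive ISEMFs and was at least 3121-fold lower. Marco, a scavenger receptor, had 0 against 1025, Itgam, which encodes the integrin CD11b, 0 against 1070, Ms4a7 0 against 694 and Clec4n, a lectin 15086 bases from Clec4d, 0 against 679. The complement receptor C5ar1 had 1 against 552, while C3ar1, the receptor of another complement fragment, had 951 against 3251. Spp1 (osteopontin) had an RPKM of 1.06 in supportive and 28.9 in non-supportive ISEMFs, Apoe 0.128 and 2.74, and Cd36, a fatty acid transporter, 1.14 and 9.74. Pilra and Lilrb4, both inhibitory receptors, were also 2-fold lower. The 3 genes that were 2-fold higher in the supportive library were Tmem119, at 3.78 against 0.460, P2ry6 at 3.23 against 1.2 and Tnfrsf1b at 8.21 against 3.97. Arhgdib, which lay between, was the most abundant of the 68 genes, at 46.7 and 85.5. The others between were Cyba at 6.99 and 13.7, Ifi30 at 8.86 and 11.5 and Lyn at 1.55 and 2.7. Also between were Cd180 at 1.13 and 1.66, Sirpa at 0.517 and 1.03 and Plcg2 at 0.915 and 1.07. The summed RPKM of the 68 genes was 89.0 in supportive and 223 in non-supportive ISEMFs.

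Ligands and related genes differed in level and direction. Csf1, the ligand of Csf1r, had an RPKM of 20.1 in supportive and 87.8 in non-supportive ISEMFs, 4.37-fold lower in the former (4.28 to 4.46). The other Csf1r ligand, Il34, had 22 and 40 reads, and the colony-stimulating factors Csf2 and Csf3 had 0 and 5 reads and 1 and 3 reads. The monocyte chemoattractants Ccl2 and Ccl7 were 10.9-fold and 12.3-fold lower in supportive ISEMFs, at 21.2 and 9.02 RPKM in the other library. The membrane-bound chemokine Cx3cl1 was higher in the supportive library, at 5.92 against 0.406. Among the bridging proteins that link Mertk to dying cells, Gas6 was at 2.27 against 15.6 and Pros1 at 15.1 against 6.28. Of the kinases related to Mertk, Axl was at 28.3 against 62.1 and Tyro3 at 0.592 against 0.513. Mfge8, which bridges dying cells to integrins, was at 65.8 against 86.8.

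Markers of other blood and tissue cells were at or near 0 in both libraries for most lists. Neutrophil genes had 0 supportive and 13 non-supportive reads over 8 genes, and mast cell genes had 16 and 0 over 7 genes. T cell genes had 50 and 27 reads over 8 genes, with Cd3d and Cd3g at 0 in both, and B cell genes 29 and 15 over 6, with Ms4a1 at 0. Red blood cell genes had 20 and 36 reads, all from Alas2. Of the dendritic cell genes, Zbtb46 alone reached an RPKM of 1, at 2.41 in supportive and 0.615 in non-supportive ISEMFs, while Flt3, Clec9a and H2-Aa had 0 reads in both. H2-Ab1, a chain of MHC class II, had 2 and 32 reads, a 16.5-fold difference (4.20 to 142). Cd74, the invariant chain of MHC class II, went the other way, with 9 and 0 reads. Of the platelet genes, Pf4 had 0 reads in supportive and 382 in non-supportive ISEMFs, an RPKM of 9.39, and Ppbp 0 and 42, whereas Itga2b, the platelet integrin, had 75 and 58. Of the Paneth cell genes other than Lyz1, all had 0 reads in both libraries. Of the epithelial genes, Krt20 had an RPKM of 0.0799 in supportive and 3.13 in non-supportive ISEMFs, Krt19 had 1 and 93 reads, Epcam 0 and 5, and Cdh1 159 and 18. Endothelial genes had 84 and 128 reads over 7 genes, and none reached 1 RPKM. Their sums hide opposite differences, since Kdr had 2 and 88 reads and Tek 65 and 2. Of the glial and neuronal genes, S100b had an RPKM of 6.69 and 0.116 and Tubb3 one of 1.92 and 3.52. The part of these cells in the values of the macrophage genes was not tested.

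**Figure D4:**
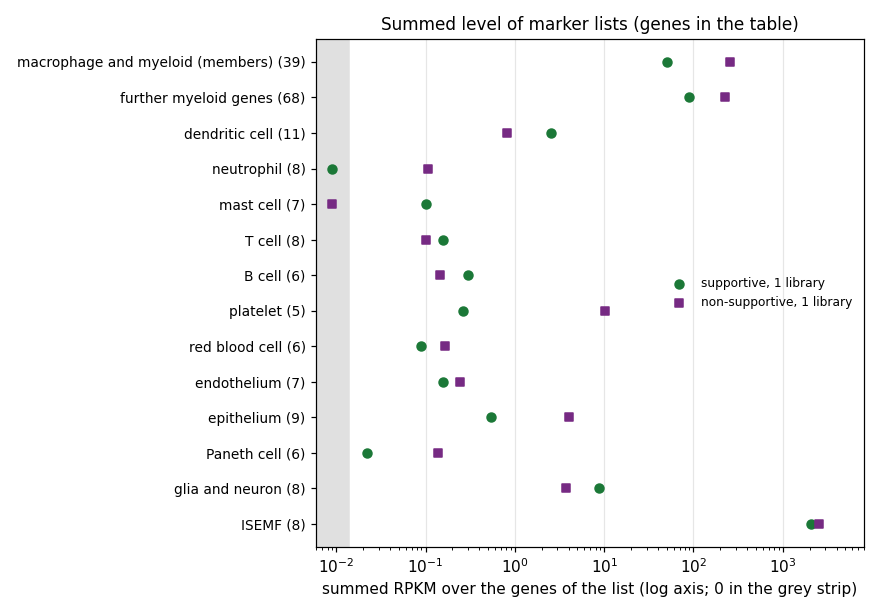
Summed RPKM of each marker list (log axis) in the supportive (circles) and non-supportive (squares) library, with the number of table rows in brackets (Ciita, a dendritic cell gene, has 2) and 0 in the grey strip. The macrophage and myeloid genes sum to 49.9 and 259, and the lists of other blood cells, apart from platelets and dendritic cells, stay under a summed RPKM of 1 in both.

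The windows around the transcription start of the genes were searched for the binding motif of PU.1. RefSeq sequences (GRCm38.p6) from 250 bases before to 50 bases after the start were at hand for 30 of the 39 genes. The genes without one were C1qa, Cd52, Csf1r, Emr1, Msr1, Ncf4, Sfpi1, Siglec1 and Tyrobp. The 8 letters GAGGAAGT, searched on both strands, were found for Ctss, Cd53 and C1qc, 10% of the 30 genes, against 3.69% of all 27025 genes with such a window. The 6 letters GAGGAA, which are part of the longer motif, were found for 19 of the 30 (63.3%), against 31.3% of all genes. The AP-1 motif TGACTCA was found for 3 of the 30 (10%), against 5.95%, and the TFE/MITF motif TCACGTGA for 0, against 1.12%. A match of letters describes the sequence and does not show that a factor binds.

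The 30 bases around each longer PU.1 motif are shown because 2 of the 3 genes that hold it, Ctss and C1qc, had few or no supportive reads and Cd53 had many. Of the 30 genes with a window, 21 had 10 supportive reads or fewer, so 2 of 3 is near the share of the list and nothing is read from it. Capitals mark the motif, which reads ACTTCCTC (its reverse complement) on the strand of each gene. The positions were found by exact match in mm9, and distances are counted from the RefSeq start that each 300-base window surrounds. The Ctss window is at chr3:95330695-95330724 on the plus strand, with the motif beginning 2 bases before the start. The Cd53 window is at chr3:106593043-106593072 on the minus strand, 6 bases after the start. The C1qc window is at chr4:136449006-136449035 on the minus strand, 195 bases before the RefSeq start, which is not the GENCODE gene start in mm9 (136448980).
Ctss: aatgaaagttcACTTCCTCattgtggatgc
Cd53: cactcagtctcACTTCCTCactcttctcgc
C1qc: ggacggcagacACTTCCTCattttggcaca
Of these genes, Ctss had 4 reads in the supportive library, C1qc 0 and Cd53 522.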

How the data were processed

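RNA was measured in 1 library of supportive and 1 of non-supportive ISEMFs. The authors prepared TruSeq libraries from mRNA and mapped the single-end reads on mm9 by TopHat (TopHat2 2.0.4 in the submitters' processing notes) with Ensembl junctions, 2 mismatches allowed and unique hits kept. They counted reads per gene with HTSeq 0.5.4p3. The deposited counts are whole reads per gene, and strand is not stated to have been used. The deposited RPKM values divide those counts by exon length and by library sizes of 71463423 and 69449374 reads. The deposited exon length equals that of GENCODE vM1 for 14 of the 39 genes and exceeds it for the others. The table also holds the authors' DESeq p-values and log2 ratio, which were not used, and the deposited Wnt pathway table holds none of the 39 genes.

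Log2 ratios were computed as log2(RPKM + 0.1), so low genes are understated, and intervals by the exact Clopper-Pearson method. With 1 library per group no test across samples was possible. Every gene of the list is named, and genes of other lists mainly where their RPKM was at least 1. Genes at 0 in whole lists were named after their values were seen. The genes and lists were chosen with earlier results of these data known. Positions and exon overlap come from GENCODE vM1 on mm9, which holds all 37309 gene identifiers. The steps were tested on simulated data. Alternatives were other pseudocounts, minimum levels, a 4-fold threshold, edgeR 4.0.16 TMM factors, DESeq2 1.42.0 size factors, recentring, and subsets of the list. Computations ran in R 4.3.3 and Python 3.11.15 (scipy 1.17.1, pandas 2.3.3, numpy 2.4.6, matplotlib 3.10.9).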

Additional observations from a re-analysis of the deposited data

How the results depend on the processing

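The 20 genes of the list that were at least 2-fold lower in the supportive library became 9 with a minimum RPKM of 5 and 31 with no minimum, and stayed between 18 and 20 under the other alternatives run. The 12 further myeloid genes became 5 and 38 under the same changes of minimum and were 11 or 12 otherwise. The median log2 ratio of 4.01 was 1.72 with a pseudocount of 1, 7.07 with 0.001, 3.58 with a minimum RPKM of 5, 2.55 with none, 3.98 with TMM library sizes, 3.99 with DESeq2 size factors, 3.94 after recentring and 5.77 at the bounds of genes with up to 3 reads. The pooled fold of 3.48 was 5.45 without Gpnmb, 15.4 without genes also made outside the blood lineage, 3.35 with TMM library sizes and 3.38 with DESeq2 size factors, and the number of genes that included it, 1, became 5 and 8 under the first 2 of these. Over genes with at least 50 reads that number was 0. Chosen after seeing the data, leaving out Gpnmb and Lyz2 gave a pooled fold of 4.70 with 3 genes including it, and the genes with 10 reads or fewer in the supportive library gave 277.3 with 24. The span of 9.33 on the log2 scale was 8.27 without genes also made outside the blood lineage, 5.83 with a pseudocount of 1 and 9.81 at the bounds. Both values at the bounds leave out the pseudocount for genes with up to 3 supportive reads and keep it for the others. The summed RPKM of 49.9 and 258.8 became 22.1 and 186.1 without the highest gene of each library, and 82.4 and 393.1 with library sizes from reads on genes without mitochondrial genes. No result reversed. Where a value moved because genes were left out or a constant was changed, that construction is the cause, and other causes were not tested. No paired analysis was possible because each population has 1 library. Depth limits the genes with few reads, for which 0 and 3 reads could not be told apart.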
